A study of Mus musculus with 5 samples.

Results

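Regions of open chromatin that lie where the ends of a pair of neighbouring protein-coding genes face each other at close range were examined in mouse forelimb buds with and without the chromatin remodelling subunit gene Smarcc1. Peaks of all 5 libraries on chromosomes 1 to 19 that shared at least 1 bp were merged into 85522 regions, of which 44386 held a peak in both controls. A region of these was taken when it overlapped a gap, or an overlap of the genes themselves, of at most 1000 bp between the facing ends of 2 different protein-coding genes (mm10, RefSeq coordinates). This gave 1595 regions, called shared gene ends here, at 1632 gene pairs with 3067 genes. Such sites exist at 2947 places in the annotation on these chromosomes, called facing gaps here.

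Accessibility was measured by ATAC-seq, in which a transposase inserts sequencing adapters into open chromatin, in 50K cells from the 2 anterior forelimb buds of each embryo, taken at E11.5 (40 to 48 somites). The 2 control embryos were Prx+/+;Smarcc1c/c and the 3 mutant embryos PrxCre/+;Smarcc1c/c, so both groups carry the conditional Smarcc1 allele and the mutants alone carry the Cre. Prx-Cre acts in limb mesenchyme, so ectoderm, vessels, blood, muscle precursors and nerves of the same bud keep the gene. The series asks whether BAF, the SWI/SNF complex that contains the Smarcc1 product BAF155, is needed for repression by GLI proteins of the Hedgehog pathway.

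When 2 genes start next to each other on opposite strands, head-to-head, a single stretch of open DNA can serve both starts, and such a stretch is called a bidirectional promoter. These promoters are known to be rich in CpG dinucleotides, to lack TATA boxes, and to be common among housekeeping genes of DNA repair, mitochondria and RNA processing. Genes that follow each other on the same strand, head-to-tail, bring the start of one close to the end of the other. Genes that end towards each other, tail-to-tail, share no start at all. BAF moves nucleosomes and is known to act at enhancers more than at CpG-rich promoters.

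The strand, known for 79.6% of 20661 genes, set the orientation of each pair. Among the shared gene ends, 820 were head-to-head, 299 head-to-tail and 50 tail-to-tail, 15 touched pairs of several orientations, and for 411 at least 1 strand was not given. On these chromosomes the control lists held 68009 and 59252 peaks and the lists of mutants 1, 2 and 3 held 35988, 42185 and 26581, so mutant 3 had the shortest list. Read depth is unknown. Called peaks began at folds of 2.29 to 2.52, and accessibility under that level leaves no peak. Peak lists do not show whether Smarcc1 was deleted. Of 68 genes of limb patterning and mesenchyme, 66 and 64 had a peak within 1 kb of a gene end in controls 1 and 2, against 63, 65 and 53 in mutants 1, 2 and 3. Prrx1 and Twist1 had one in all 5 libraries and the forelimb gene Tbx5 in both controls and mutant 1. The hindlimb genes Pitx1 and Tbx4 had one in both controls and in mutants 1 and 2, so these peaks do not tell forelimb from hindlimb. In the same library order, 18, 20, 17, 17 and 11 of 23 ectoderm genes, 16, 13, 12, 14 and 13 of 21 endothelial genes, 5, 6, 5, 6 and 6 of 17 blood genes, 13, 12, 9, 12 and 5 of 14 genes of muscle precursors and 18, 15, 13, 16 and 10 of 19 genes of neural crest, glia and neurons had one. A peak near a gene is no measure of its expression, and the part of cell composition in the results was not tested. In this bulk tissue, fewer cells with an open region and less opening per cell cannot be told apart.

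The DNA between the facing starts is shown for 5 pairs that held a peak in every library and for 3 that did not. The first pairs are examples of histone, mitochondrial, replication and proteasome genes, printed because they show the short shared stretch from which both genes start. The last 3 are among the few head-to-head pairs whose region lacked a peak in some mutant. Duox2/Duoxa2 falls outside the rule for named genes and was chosen after its values were seen, and so was the choice among the other pairs. Sequences are from RefSeq (GRCm38.p6, the coordinates of mm10), plus strand, 5′ to 3′, from the base after the left gene to the base before the right gene. Capitals mark matches, on either strand, to the motifs of NF-Y, SP/KLF, NRF1 and CREB/ATF (TGACGTCA) or to a TATA box, with the other letters given beside the shares of promoters that hold them.
H2ac11/H2bc11, chr13:22042950-22043197: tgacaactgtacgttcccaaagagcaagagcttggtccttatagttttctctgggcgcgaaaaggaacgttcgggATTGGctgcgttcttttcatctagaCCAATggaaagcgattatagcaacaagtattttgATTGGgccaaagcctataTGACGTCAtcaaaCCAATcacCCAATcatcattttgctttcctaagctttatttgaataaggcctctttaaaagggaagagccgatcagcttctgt
Mrps12/Sars2, chr7:28741822-28741956: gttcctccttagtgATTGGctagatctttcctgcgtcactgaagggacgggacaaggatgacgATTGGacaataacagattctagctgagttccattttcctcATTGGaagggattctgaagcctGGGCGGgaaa
Pcna/Cds2, chr2:132253181-132253337: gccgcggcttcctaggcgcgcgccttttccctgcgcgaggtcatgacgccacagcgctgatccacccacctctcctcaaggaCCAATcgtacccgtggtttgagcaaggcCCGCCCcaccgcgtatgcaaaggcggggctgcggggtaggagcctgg
Mrpl32/Psma2, chr13:14613038-14613241: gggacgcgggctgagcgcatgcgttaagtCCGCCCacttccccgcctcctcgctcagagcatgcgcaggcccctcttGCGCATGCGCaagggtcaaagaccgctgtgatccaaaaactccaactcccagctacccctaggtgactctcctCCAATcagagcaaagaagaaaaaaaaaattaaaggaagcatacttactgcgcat
Vmac/Ndufa11, chr17:56717700-56717761: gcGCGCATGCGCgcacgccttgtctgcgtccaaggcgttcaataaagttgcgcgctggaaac
Bhmt2/Dmgdh, chr13:93674303-93674435: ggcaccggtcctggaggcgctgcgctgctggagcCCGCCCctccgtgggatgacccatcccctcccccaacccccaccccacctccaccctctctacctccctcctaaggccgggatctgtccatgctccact
Cenpj/Parp4, chr14:56575490-56575618: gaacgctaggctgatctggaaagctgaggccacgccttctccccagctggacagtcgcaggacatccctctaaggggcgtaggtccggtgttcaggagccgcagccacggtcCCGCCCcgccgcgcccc
Duox2/Duoxa2, chr2:122298741-122298899: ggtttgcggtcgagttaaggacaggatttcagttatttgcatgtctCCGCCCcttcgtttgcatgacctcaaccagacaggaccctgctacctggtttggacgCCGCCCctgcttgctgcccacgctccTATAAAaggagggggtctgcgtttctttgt

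The histone pair H2ac11/H2bc11 carried 5 CCAAT boxes and 1 CREB/ATF site in 248 bp, and Mrps12/Sars2, a mitochondrial ribosomal protein and a seryl-tRNA synthetase, 3 CCAAT boxes in 135 bp. Both Mrpl32/Psma2, a mitochondrial ribosomal protein and a proteasome subunit, and Vmac/Ndufa11, the latter a subunit of respiratory complex I, held an NRF1 palindrome. Bhmt2/Dmgdh, the latter an enzyme of dimethylglycine metabolism, had 6 CpG in 133 bp, an observed to expected ratio of 0.44. Cenpj/Parp4, which lacked a peak in mutant 3, had 11 in 129 bp, a ratio of 0.74. Among the pairs with a peak in all 5 libraries, Pcna/Cds2, the DNA polymerase clamp with a lipid synthesis enzyme, had 16 CpG in 157 bp (ratio 0.90), H2ac11/H2bc11 had 9 in 248 bp (0.81) and Mrps12/Sars2 had 4 in 135 bp (0.53). The ratio of Mrps12/Sars2 was below that of Cenpj/Parp4, so it did not separate the printed sequences by whether a mutant lacked the peak. These sequences were picked with their values seen, so they decide nothing about CpG content in general. A larger set of gaps is described further on. Reads of histone genes can fall on near-identical copies, so the values of H2ac11/H2bc11 are uncertain.

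Nearly every shared gene end of the controls also held a peak in each mutant. No peak was called at 34 of the 1595 regions in mutant 1 (2.13%), at 16 in mutant 2 (1.00%) and at 85 in mutant 3 (5.33%), a mean of 2.82% ± 2.24 (SD, n = 3). Among all 44386 regions with a peak in both controls, 39.3%, 38.7% and 52.2% were missing in the same libraries. A peak in all 3 mutants was held by 1501 of the 1595 (94.1%), where the share over all regions in both controls was 43.1%. No mutant had a peak at 10 of them (0.63%), against 30.6% over all regions, and 84 lacked a peak in 1 or 2 mutants, against 26.3%. The controls have a peak at each of these regions because the rule asks for it, so no control value stands beside these percentages.

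Which library lacked the peak was uneven. Of the 94 shared gene ends missing from any mutant, 63 were missing from 1 mutant and 55 of those from mutant 3, the shortest list. The missing regions had weaker peaks in the controls. Strength is the mean percentile of the authors' fold, the enrichment at the summit over background, within the 2 control lists, and its deciles are taken over all regions in both controls. Median strength was 52.5 for the 94 regions and 92.2 for the 1501. All 1142 shared gene ends in the upper 2 deciles had a peak in all 3 mutants, and 41.4% of the 111 in the lower 5 deciles did. Regions near a gene start but at no facing gap, compared further on, did in 99.98% of 4453 and 26.97% of 1342 cases. Regions with no gene end within 1 kb did in 90.7% of 2197 and 10.2% of 19506. The classes were not matched for strength within these deciles.

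The facing gaps can be counted without asking for a peak in the controls. Of the 2947 facing gaps in the annotation, 1625 and 1612 held a peak in control 1 and control 2 (55.1% and 54.7%), and 1549, 1634 and 1442 in mutants 1, 2 and 3 (52.6%, 55.4% and 48.9%). Mutant 2 lay above both controls and mutants 1 and 3 below them, so the groups overlapped. The mutant mean of 1541.7 ± 96.2 (SD, n = 3) was 76.8 gaps below the control mean of 1618.5 ± 9.2 (SD, n = 2; exact two-sided permutation p = 0.6, adjusted p = 0.6 over 10 tests). The smallest p that 2 against 3 libraries allow is 0.2, so no such test can pass 0.05. Without mutant 3 the difference was -27.0 gaps, and without mutant 2 it was -123.0. With every list at the length of the shortest it was -16.2 gaps.

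Read in the other direction, of 1416 facing gaps with a peak in all 3 mutants, control 1 lacked 1 and control 2 lacked 5. Of 1563 gaps with a peak in both controls (53% of all gaps), mutants 1, 2 and 3 lacked 63, 28 and 136. A peak in all 5 libraries was found at 1411 gaps (47.9%), in both controls and no mutant at 16, and in all mutants and no control at 1. These 2 directions are not symmetric, since the first requires 3 libraries and the second 2. The control lists were also longer, with 68009 and 59252 peaks against 35988, 42185 and 26581 in mutants 1, 2 and 3. The part of list length was not tested.

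The share of gaps with a peak depended on orientation. Head-to-head gaps held a peak in 833 of 877 cases (95.0%) in each control and in 821, 834 and 807 (93.6%, 95.1% and 92.0%) in mutants 1, 2 and 3. Head-to-tail gaps held one at 311 and 305 of 499 (62.3% and 61.1%) in the control libraries and at 289, 317 and 255 (57.9%, 63.5% and 51.1%) in the mutants. Tail-to-tail gaps held one at 58 and 55 of 706 (8.2% and 7.8%) in the control libraries and at 40, 62 and 18 (5.7%, 8.8% and 2.5%) in the mutants. In every orientation with known strands mutant 2 was above both controls and mutants 1 and 3 below. The mutant minus control differences were -12.3, -21.0 and -16.5 gaps (exact permutation p = 0.6 for each, n = 2 and 3, adjusted p = 0.6). Without mutant 3 they were -5.5, -5.0 and -5.5 gaps, and without mutant 2 -19.0, -36.0 and -27.5. With every list at the length of the shortest they were -5.83, -5.17 and 1.17, so the tail-to-tail difference changed sign.

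**Figure D1:**
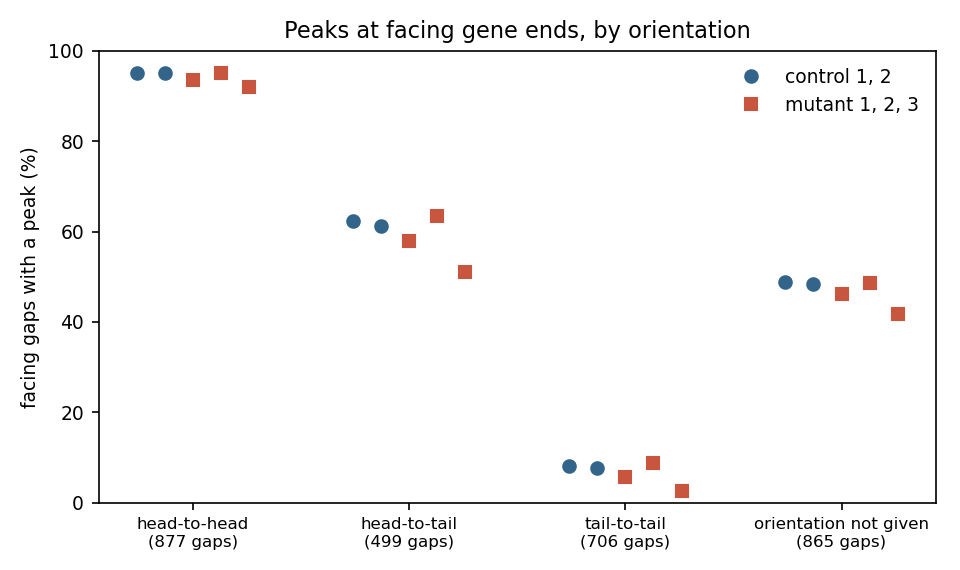
The share of facing gaps with a peak (vertical axis, percent) is plotted for each library by orientation of the gene pair, with controls as blue circles and mutants as red squares. Head-to-head gaps lie between 92.0% and 95.1% and tail-to-tail gaps between 2.5% and 8.8%, and the squares of mutant 2 lie above the circles in the 3 known orientations.

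The share with a peak also varied with the length of the gap. Head-to-head pairs whose genes overlap held a peak in 95.7% ± 0.2 of 312 cases in the controls (SD, n = 2) and 93.5% ± 2.5 in the mutants (SD, n = 3). At gaps of 251 to 500 bp, 94.1% of 85 pairs held one in each of the 5 libraries. At 501 to 1000 bp, 86.9% ± 1.7 of 42 pairs did in the control libraries and 84.1% ± 1.4 in the mutants. Head-to-tail pairs had the lowest share where the genes overlap, 37.3% ± 2.8 of 51 pairs in the control libraries and 35.9% ± 4.9 in the mutants. At 101 to 250 bp the share was 70.4% ± 0.9 of 76 pairs and 68.4% ± 5.7, and at 501 to 1000 bp it was 69.0% ± 0.7 of 197 pairs and 64.6% ± 7.9. At the limit of the rule, 52 of 121 gaps or overlaps of 901 to 1000 bp had a peak in both controls and 45 of 129 of 1001 to 1100 bp did.

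Among the shared gene ends, tail-to-tail regions were missing most often and head-to-head regions least. Of 820 head-to-head regions, 7, 3 and 15 were missing in mutants 1, 2 and 3, a mean of 1.02% ± 0.75 (SD, n = 3). Of 299 head-to-tail regions, 8, 5 and 26 were missing, 4.35% ± 3.8. Of 50 tail-to-tail regions, 6, 3 and 18 were missing, 18% ± 15.9. The difference of tail-to-tail from head-to-head regions was 11.1, 5.6 and 34.2 percentage points in mutants 1, 2 and 3, a mean of 17.0 ± 15.1 (SD, exact two-sided sign-flip permutation p = 0.25, adjusted p = 0.5). That of head-to-tail regions was 1.82, 1.31 and 6.87 points, a mean of 3.33 ± 3.07 (exact sign-flip permutation p = 0.25, adjusted p = 0.5). Each difference was positive in 3 of 3 mutants, and 0.25 is the smallest p that 3 libraries allow. Without mutant 3 the mean differences were 8.39 and 1.56 points. Without control 1 they were 35.2 and 5.13 points and without control 2 they were 32.7 and 5.12 points.

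The orientations also differed in control strength, with medians of 93.7 for head-to-head, 88.2 for head-to-tail and 66.4 for tail-to-tail regions. In the lower 5 deciles the missing share was 39.2% ± 23.8 of 17 head-to-head, 23.7% ± 15.9 of 31 head-to-tail and 36.8% ± 29.3 of 19 tail-to-tail regions (SD, n = 3). In the upper 2 deciles no region of any orientation was missing in any mutant, among 674, 183 and 8. At deciles 6 to 8 the missing share was 1.29% ± 1.61 of 129 head-to-head and 6.67% ± 7.56 of 85 head-to-tail regions, and 23 tail-to-tail regions were missing in 0%, 4.35% and 21.7% in mutants 1, 2 and 3. Of the 50 tail-to-tail regions, 43 had no gene start of known strand within 1 kb, and every tail-to-tail region that a mutant lacked was one of these.

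Shared gene ends were compared with regions within 1 kb of at least 1 gene start and at no facing gap, called single starts here. These also had to hold a peak in both controls. More than 1 start could lie within 1 kb of such a region, and none had to lie inside it. All 820 head-to-head regions held a start, so the classes were not matched for distance to a start. Single starts were missing in 6.93%, 5.15% and 13.7% of 8382 cases in mutants 1, 2 and 3. The share of missing shared gene ends minus that of single starts was -5.76 points ± 2.26 (SD over 3 mutants, negative in 3 of 3, exact sign-flip permutation p = 0.25, adjusted p = 0.5). Strength differed between them, and 43.9% of shared gene ends against 29.2% of single starts fell in the top decile. With the single starts weighted to the strength deciles of the shared gene ends, their missing share was 2.79%, 2.09% and 6.11%, and the difference was -0.84 points ± 0.22 (3 of 3 mutants, exact sign-flip permutation p = 0.25, adjusted p = 0.5). It was -0.03 points with every list at the length of the shortest, where the unweighted difference was -1.17. Without control 2 the unweighted difference was -10.9 points and the weighted one -1.31, and without mutant 2 the weighted one was -0.56.

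Regions at a 3′ gene end alone were missing in 34.9% ± 14.9 of 1037 cases and distal regions, with no gene end within 1 kb, in 57.7% ± 8.6 of 30818 (SD, n = 3). Distal regions weighted to the strength of the shared gene ends were missing in 13.9% ± 3.5, 11.1 points ± 1.9 more often. In decile 7, where 101 shared gene ends lay, these were missing in 3.3% ± 4.9, single starts in 5.7% ± 4.7 and distal regions in 38.5% ± 9.7. In decile 6 the shared gene ends were missing in 18.5% ± 17.3 and single starts in 13.5% ± 12.1, so the order was not the same in every decile.

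**Figure D2:**
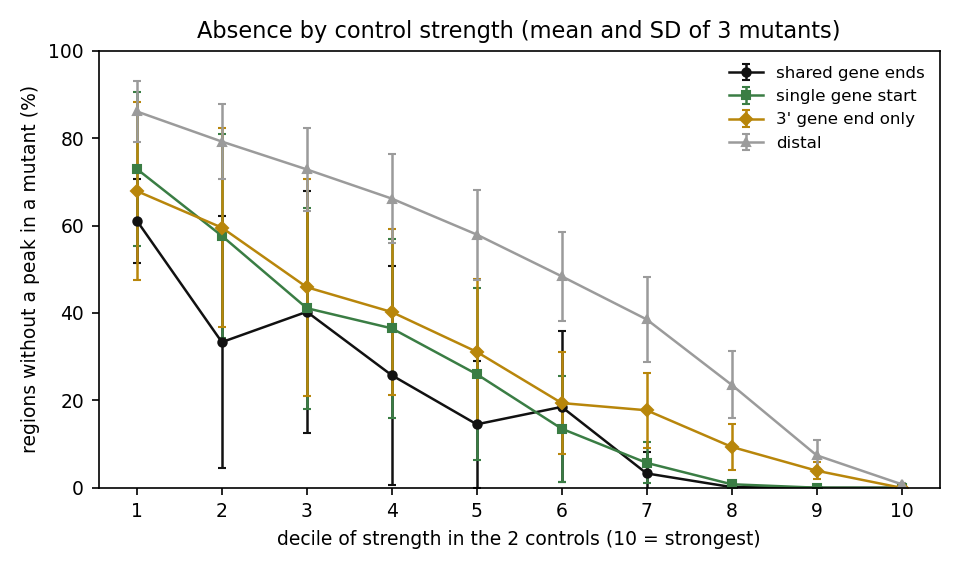
The share of regions of both controls without a peak in a mutant (vertical axis, percent, mean and SD of 3 mutants) is plotted against the decile of strength in the controls for shared gene ends, single gene starts, 3′ gene ends and distal regions. The mean of shared gene ends lies below that of single starts in each decile except 6, where it is higher, and 10, where both are 0. The bars show the spread over mutants and do not compare the classes within a mutant. Distal regions lie above both in every decile, with a mean of 0.83% in decile 10.

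Of the 10 shared gene ends without a peak in any mutant, 9 lay in the lower 5 deciles of strength, and none belonged to a gene of the role lists described further on. The strongest was the head-to-tail region between Shisa7, a modulator of neurotransmitter receptors, and Isoc2b (chromosome 7, 4844718 to 4845285, gap 92 bp). Its folds were 4.85 in control 1 and 5.25 in control 2, in decile 6. At Bco2, a carotenoid oxygenase, and Il18, a cytokine (chromosome 9, 50554647 to 50555224), a head-to-head pair whose genes overlap by 515 bp, folds were 3.81 and 3.77. The other head-to-head region was Bhmt2/Dmgdh (chromosome 13, 93674130 to 93674402), with folds of 3.29 and 3.23.

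Other absent regions lay at Nicn1/Amt, the latter an enzyme of glycine cleavage (chromosome 9, 108296622 to 108297099, folds 3.81 and 3.50) and at Coq8b/Numbl (chromosome 7, 27257149 to 27257989, folds 4.16 and 3.23). Gm128/Bnipl (chromosome 3, 95240479 to 95241343) had folds of 3.81 and 3.10. The 2 tail-to-tail regions, at Srebf2, a regulator of sterol synthesis, with Shisa8 (chromosome 15, 82204997 to 82205395) and at Gpsm1/Dnlz (chromosome 2, 26348078 to 26348692), had folds of 2.77 and 3.10 and of 2.77 and 2.69. The number of such regions depended on single libraries. Without control 1 there were 32 and without control 2 there were 35, since the rule then asks for 1 control, and without mutant 2 there were 27.

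The strongest head-to-head regions kept their peaks in all 5 libraries. Srgap2/Fam72a, the former a regulator of neuronal migration (chromosome 1, 131525489 to 131529194), had folds of 20.1 and 22.5 in the control libraries and 15.6, 14.1 and 17.0 in the mutants. Cep57/Fam76b, the former a centrosomal protein (chromosome 9, 13826134 to 13828638), had 19.9 and 19.1 and then 17.6, 15.1 and 17.0. Folds were computed within each library and are not scaled between libraries, so lower mutant folds here describe each list and are no comparison. Among head-to-tail regions the strongest included Cd81/Tssc4 (chromosome 7, 143068100 to 143070880), with 15.6 and 17.5 and then 14.0, 15.4 and 12.5, and Wbp1/Ino80b, the latter a subunit of the INO80 remodeller (chromosome 6, 83120800 to 83122569), with 15.1 and 17.5 and then 10.3, 12.3 and 11.3.

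Some of the strongest tail-to-tail regions were wide. Uba7/Inka1 (chromosome 9, 107980638 to 107987430) held a peak of 6288 bp in control 1, 2453 bp in control 2 and 5970, 5938 and 1385 bp in mutants 1, 2 and 3. Eva1b/Sh3d21 (chromosome 4, 126146332 to 126151365) held peaks of 3754 and 3993 bp in the control libraries and 3946, 3994 and 2446 bp in the mutants. Mutant 3 was narrowest at both, and at Eva1b/Sh3d21 mutants 1 and 2 were about as wide as control 2.

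A list of 31 well-known neighbouring gene pairs, most of them bidirectional promoters, was looked up. Of these pairs 23 faced each other within the limit and 19 held a shared gene end, and the 19 had a peak in all 5 libraries. So did 94.1% of all shared gene ends and 97.9% of the head-to-head ones, so the count lies near these shares. Hspd1/Hspe1, the mitochondrial chaperonin and its cochaperonin (chromosome 1, 55086850 to 55088780), had folds of 10.8 and 13.3 in the control libraries and 11.1, 10.5 and 9.92 in the mutants. Mcm4/Prkdc, a replicative helicase subunit and the DNA-dependent protein kinase (chromosome 16, 15636623 to 15638474), had 15.6 and 13.9 and then 10.9, 13.0 and 11.1. Ppat/Paics, enzymes of purine synthesis (chromosome 5, 76950237 to 76952756), had 11.3 and 11.3 and then 11.4, 13.3 and 10.1. Col4a1/Col4a2, the paired basement membrane collagens (chromosome 8, 11311296 to 11314260), had 7.46 and 6.47 and then 6.48, 7.23 and 3.36, and its peak was 2960 and 2936 bp wide in the control libraries and 2237, 2468 and 749 bp in the mutants. Col4a4/Col4a3 (chromosome 1, 82586683 to 82587325) was weak, with folds of 3.81 and 4.18 and then 3.39, 3.45 and 3.53.

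Housekeeping genes more often had a shared gene end than genes as a whole. Of all 20661 protein-coding genes 14.8% had a shared gene end, and of mitochondrial ribosomal protein genes 47.4% did (37 of 78), of respiratory chain genes 40.9% (45 of 110), of tRNA synthetases and tRNA enzymes 40.6% (26 of 64), of DNA replication and repair genes 36.6% (45 of 123) and of splicing and RNA processing genes 32.7% (73 of 223). Genes of limb patterning and mesenchyme had one in 7.35% (5 of 68) and Hedgehog pathway and target genes in 2.22% (1 of 45). These shares describe the annotation and the control peaks together.

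The share of regions with a peak in all 3 mutants varied between roles, around the 94.1% of all shared gene ends. DNA replication and repair genes had 46 of 46 regions in all 3 mutants, RNA polymerase and mediator genes 36 of 36, chromatin enzymes 35 of 35, translation factors 26 of 26, tRNA enzymes 26 of 26 and chaperones and mitochondrial import genes 40 of 40. Splicing genes had 75 of 76, mitochondrial ribosomal proteins 37 of 38 and respiratory chain genes 44 of 46. Among the exceptions, Atp5d/Midn, a subunit of ATP synthase with midnolin (chromosome 10, 80145206 to 80146422), had folds of 4.85 and 4.31 in the controls, 4.63 and 5.26 in mutants 1 and 2 and no peak in mutant 3.

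Other lists lay below the 94.1% of all shared gene ends, some by a single region or less, and differences between lists were not tested. Cilium and centrosome genes had 33 of 37 regions in all 3 mutants (89.2%), cytosolic ribosomal proteins 22 of 24 (91.7%), proteasome and ubiquitin ligase genes 47 of 51 (92.2%) and vesicle and membrane transport genes 62 of 66 (93.9%). Small lists had 4 of 5 (limb patterning and mesenchyme), 3 of 4 (collagens) and 1 of 2 (neural crest, glia and neurons). Cfap52/Stx8 (chromosome 11, 67965373 to 67965890), a ciliary protein with a syntaxin, had folds of 4.51 and 3.50 in the controls and, among the mutants, a peak in mutant 1 alone, with 5.09. Tap1/Psmb8, genes of antigen processing (chromosome 17, 34197392 to 34198220), had 4.68 and 4.72 and then 4.27 in mutant 2 alone. Cell division genes had 40 of 42 (95.2%) and zinc finger genes 45 of 46 (97.8%), replication histones had 16 of 16, and Cenpj/Parp4 (chromosome 14, 56575257 to 56575930) was among the exceptions, with 6.42 and 4.85 in the controls, 3.39 and 3.61 in mutants 1 and 2 and no peak in mutant 3.

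Shared gene ends at limb genes were few. In the annotation 7 of 68 genes of limb patterning and mesenchyme had a facing gap (10.3%, against 24.6% of all protein-coding genes), and 5 had a shared gene end. Alx1/Gm34298, the former a homeobox gene of limb and craniofacial mesenchyme (chromosome 10, 103027991 to 103029081), had folds of 6.94 and 6.74 in the control libraries and 6.02, 4.60 and 5.38 in the mutants. Hoxa5/Hoxa6, the only Hox region of the set (chromosome 6, 52202898 to 52206590), had 5.03 and 5.52 and then 4.17, 5.09 and 3.70, while its strongest peak was 1990 and 3248 bp wide in the control libraries and 701, 1784 and 438 bp in the mutants. All 3 mutant widths lay below both controls, as at 33.4% of the 1501 shared gene ends with a peak in all 5 libraries. At the hindlimb gene Pitx1, which faces Catsper3 (chromosome 13, 55824100 to 55824903), folds were 5.72 and 3.50 in the control libraries and 3.70 and 4.43 in mutants 1 and 2, with no peak in mutant 3. Rhebl1/Dhh, the latter encoding the ligand Desert hedgehog (chromosome 15, 98880539 to 98882189), was the only region of the Hedgehog list, with 10.1 and 12.8 and then 9.26, 9.03 and 8.24. Markers of ectoderm gave 1 region, at Dmtn/Fgf17, and those of endothelium, blood and muscle precursors gave none. Only 4 of 21 endothelial, 3 of 17 blood and 0 of 14 muscle precursor genes had a facing gap in the annotation.

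Where the peak was kept, the median width of the strongest peak of a region was lower in each mutant than in both controls. A region that a list split into several peaks counts by the strongest alone. Such splits were found at 10.3% and 12.2% of the shared gene ends with a peak in controls 1 and 2. In mutants 1, 2 and 3 they were found at 14.3%, 12.2% and 15.8%, and their part in the width was not tested. At the 1501 shared gene ends with a peak in all 5 libraries the median width of the strongest peak was 1481 and 1419 bp in control 1 and control 2, and 1317, 1383 and 1047 bp in mutants 1, 2 and 3. The means differed by 201 bp (1450 ± 44 bp, n = 2, against 1249 ± 178 bp, n = 3, SD; exact permutation p = 0.2, adjusted p = 0.5). All 3 mutant widths lay below both control widths at 501 regions (33.4%) and above both at 7 (0.47%). At 7118 single starts with a peak in all 5 libraries these shares were 38.7% and 0.55%. There the medians were 1384 and 1270 bp in the control libraries and 1170.5, 1209 and 924 bp in the mutants, 17.0% lower between the means, where the shared gene ends were 13.9% lower and distal regions 26.5% lower. The tail-to-tail medians overlapped, with 1166 and 1143 bp in the control libraries and 949, 1180.5 and 560.5 bp in the mutants (32 regions).

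The width difference was -106 bp without mutant 3, the library with the shortest list, and -204 bp with every list at the same length. Shortening a list drops whole peaks and leaves the borders of the kept ones as called. The equal lists therefore cannot decide whether list length bears on width. Its relation to read depth was not tested.

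**Figure D3:**
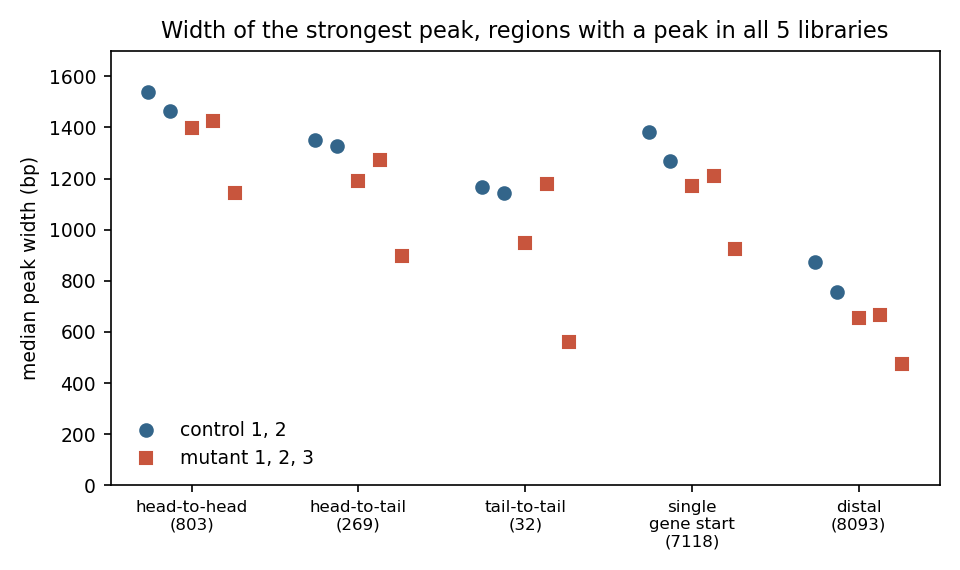
The median width of the strongest peak (vertical axis, bp) is plotted by library for head-to-head, head-to-tail and tail-to-tail shared gene ends, single gene starts and distal regions with a peak in all 5 libraries, with controls as blue circles and mutants as red squares. Mutant 3 is lowest in each class, and in all classes but tail-to-tail every mutant lies below both controls.

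The position of the summit was compared at regions with 1 pair and a peak in all 5 libraries. At 794 head-to-head regions the strongest summit lay within 250 bp of the centre of the gap in 73.3% and 77.1% of cases in the control libraries and in 74.6%, 75.1% and 77.8% in the mutants, and the groups overlapped. Where the gap was 100 bp or longer (252 regions), the summit lay between the starts in 38.5% and 57.5% in the control libraries and in 40.5%, 37.7% and 49.2% in the mutants, so it often lay inside one of the genes. At 267 head-to-tail regions the summit was nearer to the gene start than to the gene end in 86.9% and 88.8% in the control libraries and 86.5%, 88.0% and 88.4% in the mutants. Its median position was 108 and 65 bp downstream of that start in the control libraries and 92, 116 and 79 bp in the mutants. At 30 tail-to-tail regions the summit lay farther away, within 250 bp of the centre of the gap in 20% and 23.3% in the control libraries and 26.7%, 20% and 36.7% in the mutants, and the median distance was 477 to 592 bp over the 5 libraries.

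**Figure D4:**
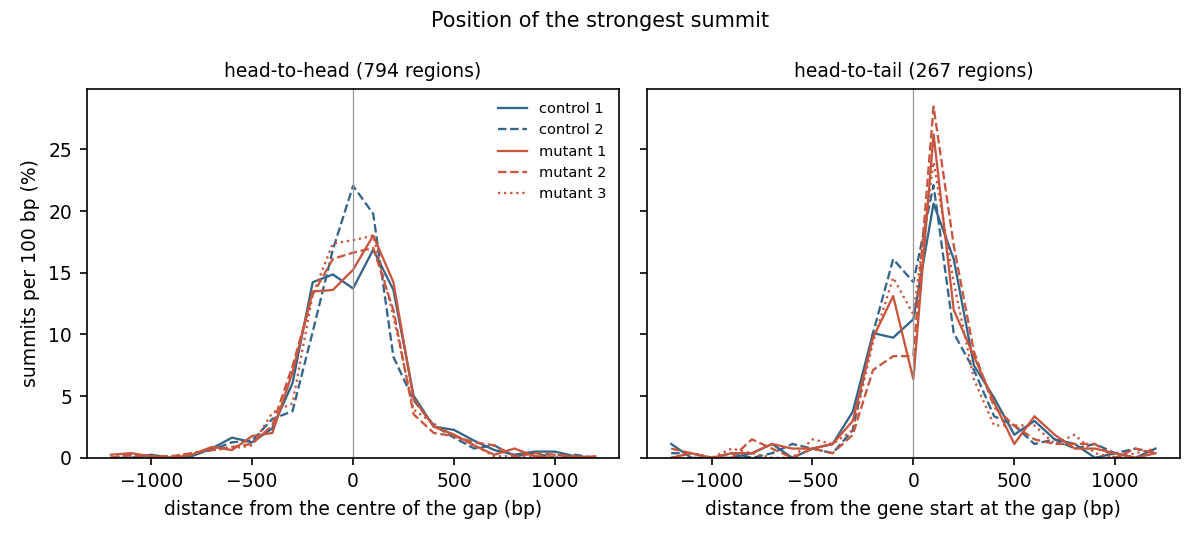
The position of the strongest summit is plotted as percent of regions per 100 bp, at left from the centre of head-to-head gaps (794 regions) and at right from the gene start at head-to-tail gaps (267 regions, positive values inside the gene), with controls in blue and mutants in red. The curves of the 5 libraries overlap, centred on the gap at left and peaking just inside the gene at right.

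Promoters of head-to-head pairs were compared with other promoters of the RefSeq table, which hold 250 bp before and 50 bp after a gene start. The 1645 promoters at head-to-head regions had a median CpG ratio, observed over expected, of 0.84 and a GC content of 62.7%, against 0.75 and 61.7% at 8041 single start regions and 0.60 and 56.7% over all 16456 promoters. The ETS core CCGGAAG was found on either strand in 26.9% of head-to-head, 15.0% of single start and 12.3% of all promoters. The NRF1 palindrome was found in 16.2%, 9.4% and 6.88%, and YY1 (AANATGGCG) in 7.54%, 4.38% and 3.28%. NF-Y (CCAAT) was at 40.5%, 38.4% and 39.1%, and SP/KLF (GGGCGG) was at 65.8%, 66.8% and 47.3%. The CREB/ATF site was at 4.01%, 3.15% and 2.40%. The TATA box (TATAAA) was at 4.80%, 6.99% and 13.5%. The 299 promoters at head-to-tail regions held ETS in 22.4%, NRF1 in 7.36% and YY1 in 3.01%. They held NF-Y in 41.5%, SP/KLF in 67.6%, CREB/ATF in 3.68% and the TATA box in 9.03%. Promoters of a close pair share bases, so these genes are not independent, and a match is letters in a window, not a bound site.

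**Figure D5:**
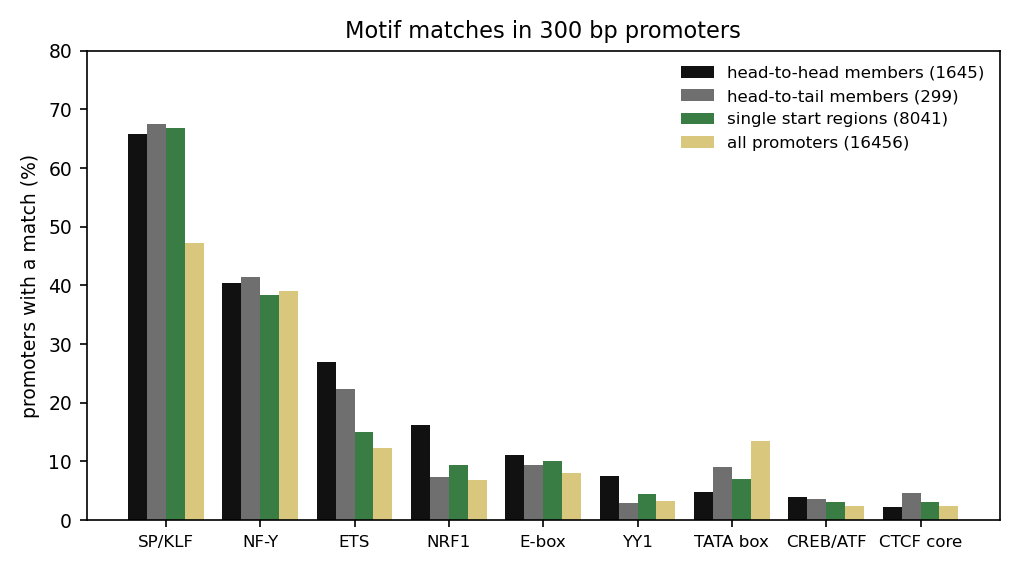
The share of promoters with a match on either strand (vertical axis, percent) is plotted by motif for head-to-head and head-to-tail shared gene ends, single start regions and all promoters, with the number of promoters in brackets. ETS and NRF1 bars are highest for head-to-head pairs (26.9% and 16.2%), and the TATA box bar is lowest for them (4.8%). The ETS bar of head-to-tail pairs comes next at 22.4%, and their NRF1 bar is at 7.36%.

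Between the facing starts themselves, 352 head-to-head gaps of 20 to 250 bp whose region had a peak in all 3 mutants had 8.51 CpG per 100 bp and a median CpG ratio of 0.89. The 5 such gaps without a peak in 1 or more mutants had 4.74 CpG per 100 bp and a median ratio of 0.58. These 5 are Bhmt2/Dmgdh, Cenpj/Parp4, Duox2/Duoxa2, Cgas/Mto1 and Rnf123/Mst1, with 69.9%, 68.2%, 54.7%, 51.0% and 58.9% GC, and they were chosen by their peaks, so the difference is a description of 5 sequences. Duox2/Duoxa2, an oxidase of hydrogen peroxide synthesis with its maturation factor, was the one of the 8 printed sequences with a TATA box.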

How the data were processed

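The members, gene lists and tests were chosen with earlier results of these data known. The submitters' processing notes name bcl2fastq 2.20.0, Bowtie2 2.3.5, MACS2 and the build mm10. Options, the version of MACS2, the handling of duplicates and any shift for the transposase cut were not given in the sources used here, and these choices set peak borders and heights. For each library the authors deposited its own list of positions and summits (other values), a display score (deposited but not used), a fold ratio over background, and p-values and q-values as −log10 (lowest deposited −log10 q 1.50 to 1.69).

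Replicate numbers follow sample order and pair nothing. Each library came from 1 embryo, so the spread includes that between animals. Facing gaps join genes A and B where B starts and ends after A and A's end lies within 1000 bp of B's start, nested genes left out. A gap has a peak if a peak covers at least 1 of its bases. The strand came from the promoter table (16456 of 20661 genes matched). Percent missing was computed per mutant. Group differences were tested with exact permutations (2 against 3) and exact sign flips (3 mutants), 10 tests, Benjamini-Hochberg adjusted. The weighting by decile was tested on simulated data. Named regions are those absent from all mutants, the 5 strongest of each orientation, the well-known pairs, for each role list up to 3 with a peak in the fewest mutants and then the strongest, and the 3 weakest with a peak in all 5 libraries, and not all are printed (some, including 2 of those absent from all mutants, are not reported here). Python 3.11.15, numpy 2.4.6, pandas 2.3.3 and scipy 1.17.1 were used. Alternatives were a −log10 q of at least 5 or 10, equal list lengths, gap limits of 500 and 2000 bp, 50% overlap, no predicted genes and leaving out each library.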

Additional observations from a re-analysis of the deposited data

How the results depend on the processing

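No paired analysis was possible because the labels give no replicate numbers that join a control to a mutant. Under the 7 other settings and without each library in turn, the signs of the differences in gaps with a peak, in missing shares and in width stayed the same, except for tail-to-tail gaps, where mutants minus controls gave 1.17 gaps in place of -16.5 with every list at the length of the shortest. The number of shared gene ends absent from all mutants, 10, was 17 where −log10 q had to reach 5, 27 where it had to reach 10, 3 with lists of equal length and 25 with a gap limit of 2000 bp. It ran from 11 to 35 without single libraries (32 and 35 without controls 1 and 2, 27 without mutant 2). The difference in gaps with a peak, -76.8, was -16.2 with equal lists and -137.3 where −log10 q had to reach 10. The difference from single starts at like strength ran from -1.31 to -0.03 points, and that of tail-to-tail from head-to-head from 8.39 to 35.2. The cause of these shifts was not tested. For width, equal lists could not decide, since the borders of kept peaks stay as called. None of the 10 tests could pass 0.05 in 5 libraries. The read depth is unknown, so absence of a peak is absence above the caller's threshold, and 2 controls give little measure of their spread.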

Other observations

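Some head-to-head gaps had no peak in any library. Of 877 there were 36 (4.1%), against 608 of 706 tail-to-tail gaps (86.1%). Among the 36, named here after their values were seen, are the transcription factor pairs Stat5b/Stat5a (gap 346 bp) and Zic1/Zic4 (the genes overlap), the kidney filter pair Kirrel2/Nphs1 (gap 691 bp), the zinc transporter gene Slc30a3 with Dnajc5g, Il11/Tmem190 and genes of the Mup family of urinary proteins. Also among the 36 are Rnf151/Rps2, the latter a gene of a cytosolic ribosomal protein, Gm2436/Srp54b, Ctnnd1/Btbd18 and Ushbp1/Babam1. The pairs named were not picked by a rule and do not stand for a class of genes. The histone pairs H2bc23/H2ac23, H2ac24/H4bc24 and H2bc1/H2ac1 were in the same set, and since histone genes have near-identical copies their values are uncertain.

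Shared gene ends that a list split into several peaks numbered 164 and 195 for the control libraries, against 223, 192 and 238 for mutants 1, 2 and 3, so mutants 1 and 3 lay above both controls and mutant 2 between them. Peaks in shared gene ends made up 2.61% and 3.07% of the control lists and 5.07%, 4.28% and 6.78% of the mutant lists. Their number was 1776 and 1817 in the former and 1825, 1807 and 1803 in the latter.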
